A study of Mus musculus with 12 samples.

Results

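The 37 genes described here encode proteins that a cell uses to condense its chromosomes, attach them to the spindle, check the attachment, separate the copies and divide. They were chosen by function and by symbol, as mitotic kinases and genes of the kinetochore, the checkpoint, condensin and cytokinesis. Cyclins were left out, as were kinesins other than Cenpe, the gene of a kinesin-like kinetochore motor. All 37 genes were found among the 53090 gene rows of the deposited tables. The series compared retinas of C57BL/6 mice at postnatal day 9 (P9, 6 libraries) with retinas at postnatal day 3 (P3, 6 libraries), while retinal vessels grow and remodel. All animals received tamoxifen by intraperitoneal injection on days 1 and 2, so P9 also lies further from the injections than P3, and the effects of age and of that interval cannot be told apart. RNA was recovered by immunoprecipitation (IP) through the HA tag of labelled ribosomes, and the labels name retinal pericytes, the mural cells of capillaries, as the cell type. The sources used here name neither the genotype, nor the driver of the tag, nor the number of animals behind a library. The p-values therefore set the difference between the ages against the spread between libraries, and that spread may be technical in part.

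In mitosis the chromosomal passenger complex corrects wrong attachments between spindle fibres and the kinetochore, the protein plate built on each centromere. The spindle checkpoint delays the anaphase-promoting complex until all kinetochores are attached, after which securin is destroyed, separase cuts cohesin and the chromosome copies part. Most of these genes are transcribed only in cycling cells and peak late in the cycle. In the mouse retina around birth, neural progenitors, astrocytes, endothelial cells and mural cells divide, and most of this division ends within the first postnatal weeks.

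Library totals ran from 32507000 to 37776000 expected counts at P9 and from 26840000 to 33514000 at P3. The labelled cell type was checked against 12 pericyte markers, all of them detected, whose summed level was 2832 to 6377 CPM (counts scaled to a common library size by TMM) at P9 and 360 to 1343 CPM at P3, so the libraries of both ages held mural transcripts. RNA of other retinal cells was present as well. The summed level of 8 rod photoreceptor markers was 6388 to 13494 CPM at P9 and 1143 to 2382 CPM at P3. For 15 markers of retinal progenitors it was 1451 to 1709 CPM at P9 and 2423 to 2858 CPM at P3. None of the markers on these 3 lists was at 0 in all libraries. In the test described next, 14 of 15 progenitor markers were lower and 1 was higher at P9, while 11 of 12 pericyte markers were higher and 1 did not pass. Of 9 endothelial markers, 5 were higher, 1 was lower and 3 did not pass. Of 6 retinal astrocyte markers, 4 were higher and 2 did not pass. That test called 25.6% of all tested genes lower and 26.1% higher at P9. What each cell type contributed to the mitotic genes was not tested, and in such pooled RNA fewer dividing cells and less RNA per dividing cell cannot be told apart.

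All 37 mitotic genes were lower at P9. The test was edgeR's quasi-likelihood test over 18638 genes with Benjamini-Hochberg adjustment and a threshold of 0.05, and it called 25.6% of all tested genes lower at P9 and 51.8% in either direction. The median log2 fold change, P9 over P3, was -2.37 for the 37 genes, a level 5.17-fold lower, against -0.0018 for all tested genes. Single genes ranged from 52.3-fold lower (Mki67) to 1.29-fold lower (Bub3), and the largest adjusted p among them was 0.00232 (edgeR, Pttg1). A fall of at least 2-fold was called for 34 of the 37 (all but Bub3, Pttg1 and Cenpn) and for 8.01% of all tested genes. At least a 4-fold fall was called for 26 of the 37 and for 2.83% of all tested genes. A fall of at least 8-fold was called for 7 of the 37 (Mki67, Cenpf, Ncapg, Top2a, Espl1, Cenpa and Aurkb) and for 1.01% of all tested genes. For 36 of the 37, the 6 values at P9 all lay below the 6 values at P3, as they did for 15.4% of tested genes. The exception was Spc25.

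**Figure D1:**
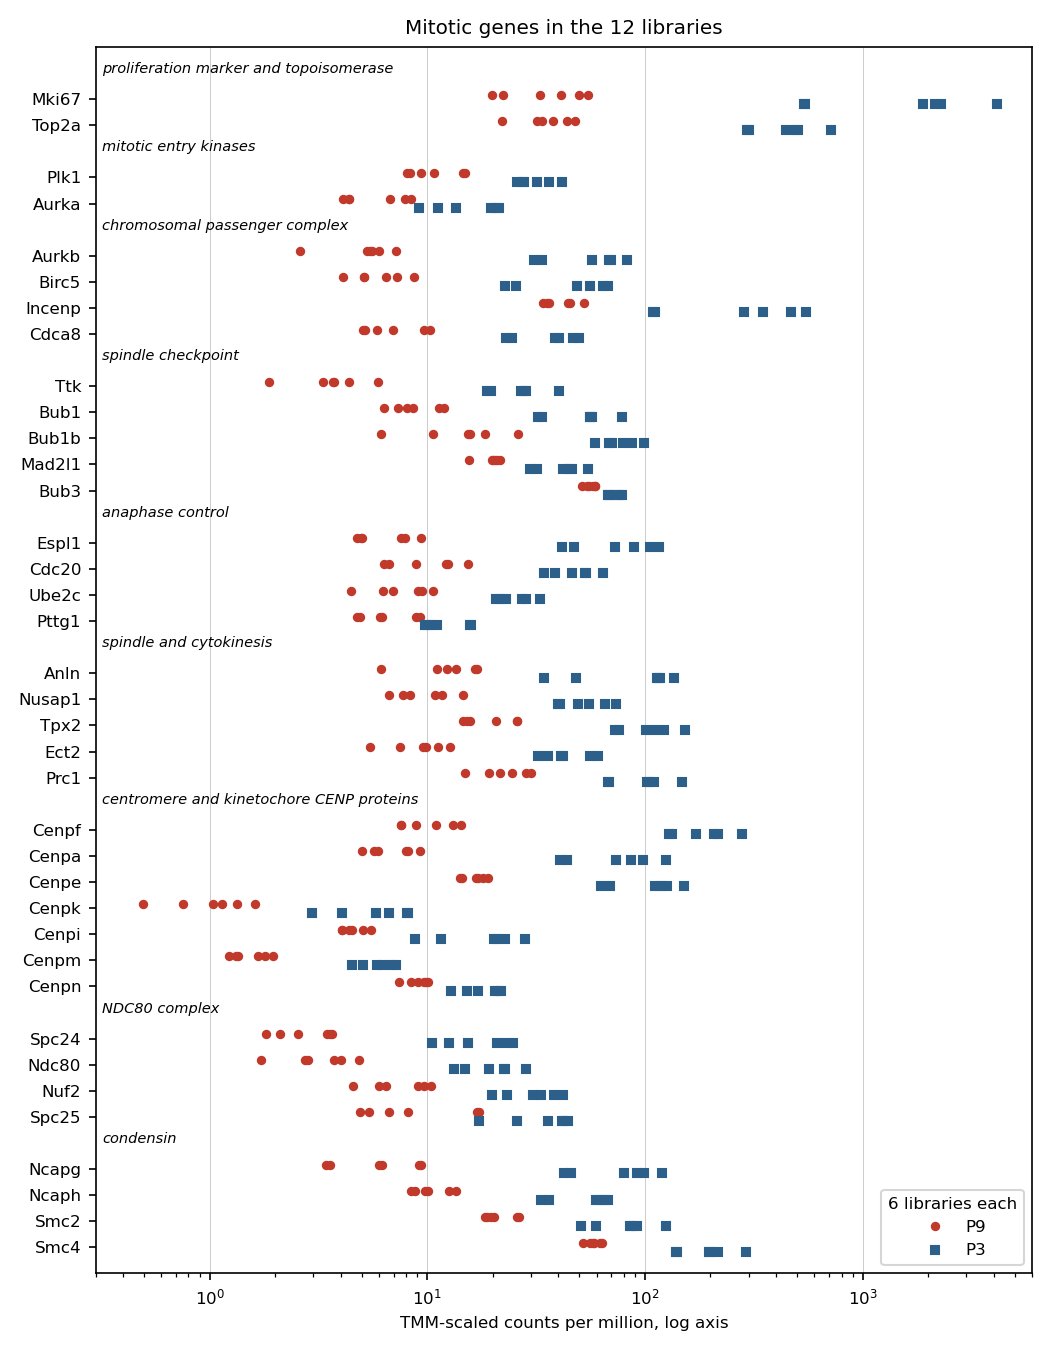
Level of each of the 37 genes in every library, as TMM-scaled CPM on a log axis, with P9 as circles above P3 as squares and genes grouped by role (6 libraries per age). The ages are apart for every gene but Spc25, the widest gap is that of Mki67 and the narrowest shift that of Bub3.

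Genes of this kind are known to share promoter elements. The CCAAT box is bound by the factor NF-Y, and the cell cycle genes homology region (CHR) near the start is bound by the repressive DREAM complex in resting cells and by an activating complex with B-Myb and FOXM1 in dividing cells. RefSeq windows on GRCm38.p6, the same assembly as mm10, from 250 bases before to 50 after an annotated start, were available for 32 of the 37 genes. Tpx2, Smc4, Spc24, Aurkb and Incenp had no window. Only the first listed window of each gene was searched, so a match near another start would be missed. CCAAT, read on both strands, occurred in 24 of the 32 windows (75.0%), against 38.2% of the windows of 12248 tested genes and 37.9% of those of all 27025 genes. A CHR, searched as TTTGAA or TTCGAA on both strands, occurred in 23 of 32 (71.9%), against 13.6% of tested genes and 19.4% of all genes. Both elements stood together in 21 of 32 windows (65.6%), against 5.78% of tested genes and 7.70% of all genes. In all 21 the CCAAT furthest upstream lay before the CHR furthest downstream, as in 52.5% of the tested genes that hold both. Windows with more matches meet this rule more easily. There were 2 or more CCAAT matches in 43.8% of the 32 windows and in 14.2% of those of tested genes. In Bub1b, Ect2 and Smc2 a CHR also lay upstream of every CCAAT. The E2F-type letters TTTGGCGC or TTTCGCGC occurred in 0 of 32 windows and in 1.45% of tested genes. A CCAAT match shared a base with a CHR match in the Cdca8 window and in no other of the 32, and a match is a description of the sequence, not evidence of binding.

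Windows are printed for the 4 genes with both elements and the smallest adjusted p, and for the 2 genes that changed least, each 5′ to 3′ on the strand of the gene with matches in capitals (ATTGG and TTCAAA are the reverse strand forms). Cenpf lies at chr1:189688037-189688336, minus strand, Top2a at chr11:99024140-99024439, minus strand, Espl1 at chr15:102296043-102296342, plus strand and Cenpa at chr5:30666636-30666935, plus strand. Bub3 lies at chr7:131560120-131560419, plus strand, and Pttg1 at chr11:43425932-43426231, minus strand.
Cenpf: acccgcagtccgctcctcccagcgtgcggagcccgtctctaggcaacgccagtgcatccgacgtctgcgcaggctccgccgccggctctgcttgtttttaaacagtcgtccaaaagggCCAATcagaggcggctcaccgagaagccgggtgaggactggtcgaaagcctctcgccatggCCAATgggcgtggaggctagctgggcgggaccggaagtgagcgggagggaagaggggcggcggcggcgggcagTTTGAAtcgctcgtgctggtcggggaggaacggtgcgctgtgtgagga
Top2a: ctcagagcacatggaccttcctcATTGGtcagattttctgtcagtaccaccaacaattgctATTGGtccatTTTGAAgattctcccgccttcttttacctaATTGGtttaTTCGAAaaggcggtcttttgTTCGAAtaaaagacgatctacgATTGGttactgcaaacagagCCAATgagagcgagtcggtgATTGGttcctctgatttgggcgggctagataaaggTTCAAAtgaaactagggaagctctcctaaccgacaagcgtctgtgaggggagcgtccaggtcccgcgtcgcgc
Espl1: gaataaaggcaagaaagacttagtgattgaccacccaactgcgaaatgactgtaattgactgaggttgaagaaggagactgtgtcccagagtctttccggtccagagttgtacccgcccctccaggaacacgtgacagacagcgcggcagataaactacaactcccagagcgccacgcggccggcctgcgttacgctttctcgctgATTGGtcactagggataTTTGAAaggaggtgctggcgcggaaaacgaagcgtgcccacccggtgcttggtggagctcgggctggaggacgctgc
Cenpa: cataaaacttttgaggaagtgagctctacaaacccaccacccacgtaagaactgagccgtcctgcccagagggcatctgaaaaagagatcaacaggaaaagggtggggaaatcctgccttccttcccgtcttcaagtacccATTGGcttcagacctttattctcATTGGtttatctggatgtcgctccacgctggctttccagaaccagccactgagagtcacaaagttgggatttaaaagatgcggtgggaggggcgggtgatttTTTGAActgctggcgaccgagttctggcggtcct
Bub3: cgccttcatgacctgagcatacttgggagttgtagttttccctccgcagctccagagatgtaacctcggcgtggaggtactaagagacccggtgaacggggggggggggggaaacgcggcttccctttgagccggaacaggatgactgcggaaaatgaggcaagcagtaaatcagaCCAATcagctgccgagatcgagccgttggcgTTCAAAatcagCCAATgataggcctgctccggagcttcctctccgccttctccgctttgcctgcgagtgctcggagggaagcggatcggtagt
Pttg1: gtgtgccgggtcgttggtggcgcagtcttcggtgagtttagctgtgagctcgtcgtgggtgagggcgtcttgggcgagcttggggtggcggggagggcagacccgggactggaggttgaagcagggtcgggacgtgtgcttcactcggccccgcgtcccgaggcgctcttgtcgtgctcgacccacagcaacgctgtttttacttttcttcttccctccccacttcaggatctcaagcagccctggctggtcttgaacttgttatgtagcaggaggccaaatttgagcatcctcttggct

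The Top2a window held 6 CCAAT matches and 4 CHR matches, whereas that of Cenpf, which fell further, held 2 and 1. Bub3, with the smallest change of all, held 2 CCAAT matches and 1 CHR, the same numbers as Cenpf and Cenpa. The Pttg1 window held neither, but its annotated start lies 1482 bases inside the gene. Starts also lie inside the gene for Cenpm (437 bases), Ect2 (375) and Aurka (316), which hold both elements, with smaller offsets in others. The 6 largest falls among the 32 genes (Mki67, Cenpf, Ncapg, Top2a, Espl1 and Cenpa) were all in genes with both elements. The median log2 fold change was -2.25 for the 21 genes with both and -2.43 for the other 11, and the difference was not tested. The 23 genes with a CHR ranged from -5.71 to -0.37 and the 9 without from -2.95 to -0.86.

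**Figure D2:**
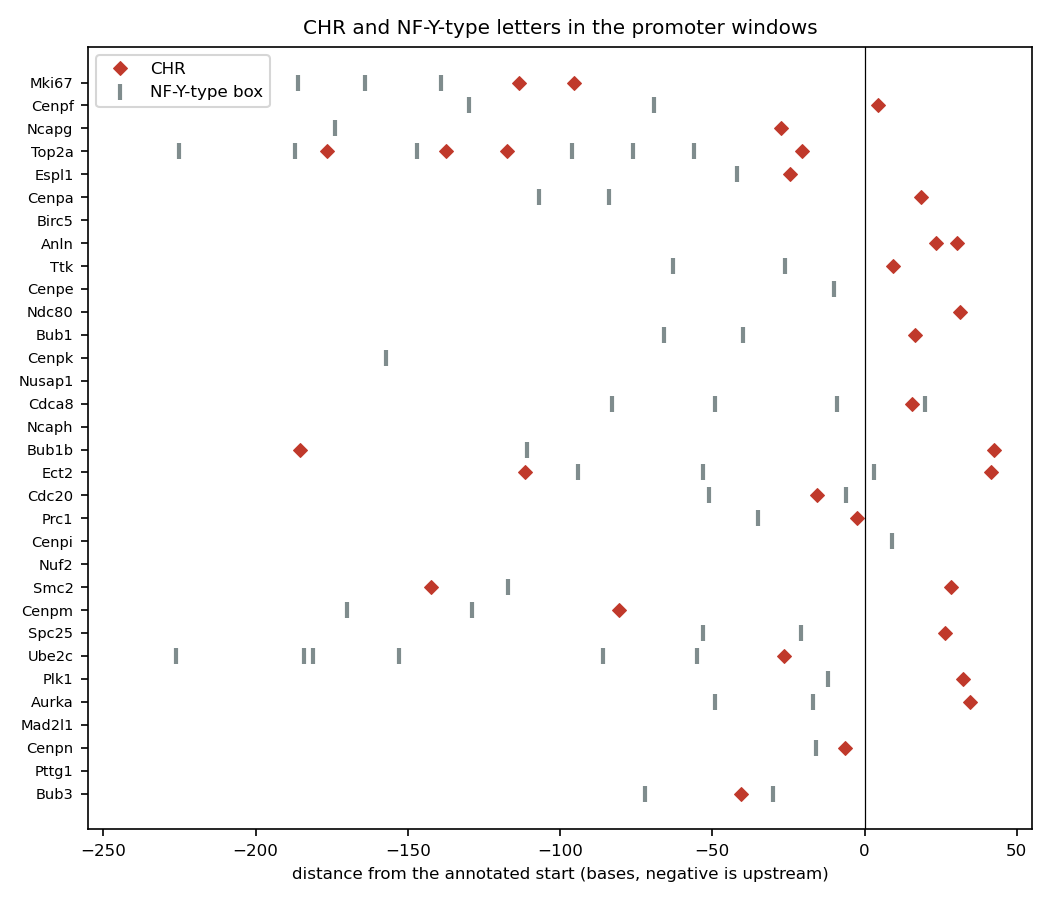
Position of CHR matches (diamonds) and CCAAT matches (bars, the NF-Y-type box) relative to the annotated start in the windows of 32 mitotic genes, ordered from the largest fall at the top to the smallest at the bottom. Of 31 CHR matches, 22 lie between 60 bases before and 50 bases after the start. The 6 genes at the top of the plot hold both elements, and below them genes with and without matches are mixed.

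Mki67 (ENSMUSG00000031004.8, chromosome 7, 135689784 to 135716450) encodes Ki-67, which coats mitotic chromosomes and keeps them apart, and Top2a encodes the topoisomerase that untangles their DNA. Mki67 had 19.9 CPM in the lowest, 37.1 in the median and 54.8 in the highest library at P9, and 539.8, 2023 and 4135 CPM at P3. The lowest P3 library was thus almost an order of magnitude above the highest P9 library. The log2 fold change was -5.71 ± 0.53 (SE, adjusted p = 6.53e-07), which placed Mki67 at rank 15 among the largest falls of all 18638 genes. Top2a had 22.1, 35.8 and 47.7 CPM at P9 (lowest, median and highest), and 294, 466 and 716 CPM at P3. Its log2 fold change was -3.66 ± 0.24 (SE, adjusted p = 4.03e-08). Mki67 took 4.67% to 8.61% of the summed CPM of the 37 genes in the P9 libraries and 23.6% to 50.6% in the P3 libraries, so sums over the genes are also given without it.

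Among the kinases that drive entry into mitosis, Plk1 and Aurka fell less than most of the set. Plk1, the polo-like kinase of centrosomes and kinetochores, had 8.07, 10.1 and 14.98 CPM at P9 (lowest, median and highest library) and 25.8, 29.9 and 41.6 CPM at P3. Aurka, the Aurora kinase of the spindle poles, had 4.11, 5.58 and 8.40 CPM at P9 and 9.18, 16.6 and 21.4 CPM at P3, and its ages were separated by less than 1 CPM. The falls were 2.88-fold for Plk1 (adjusted p = 5.38e-06, edgeR) and 2.66-fold for Aurka (adjusted p = 0.000266).

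The chromosomal passenger complex fell more steeply, with a median log2 fold change of -2.94 over its 4 genes. Aurkb, the Aurora kinase of this complex, had 2.60, 5.53 and 7.18 CPM at P9 (lowest, median and highest library) and 31.0, 62.8 and 82.7 CPM at P3, a 10.6-fold fall (adjusted p = 2.16e-07, edgeR). Incenp, the scaffold that activates it, had 34.0, 40.2 and 52.5 CPM at P9 and 109, 317 and 552 CPM at P3. Its libraries spread 1.54-fold from lowest to highest at P9 and 5.04-fold at P3. Cdca8, which encodes borealin, had 5.04, 6.40 and 10.3 CPM at P9 and 22.99, 39.4 and 49.6 CPM at P3, the smallest fall of the complex at 5.17-fold. Birc5, which encodes survivin and anchors the complex at centromeres, averaged 6.12 ± 1.67 CPM at P9 and 47.4 ± 19.1 CPM at P3 (SD, n = 6 each), 7.72-fold lower.

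Checkpoint genes separated into steep and shallow falls. Ttk, the kinase MPS1 that starts the checkpoint signal, had 1.87, 3.71 and 5.94 CPM at P9 (lowest, median and highest library) and 18.9, 27.4 and 40.2 CPM at P3, 7.03-fold lower. Bub3, the adaptor that brings BUB1 and BUBR1 to the kinetochore, had 51.2, 56.5 and 59.3 CPM at P9 and 67.96, 71.9 and 78.6 CPM at P3. Its ages did not overlap and the fall was called, but it was only 1.29-fold (log2 fold change -0.37 ± 0.07, SE, adjusted p = 0.000257, edgeR), which placed it at rank 5147 among the falls of all tested genes. Bub1, a checkpoint kinase, averaged 8.92 ± 2.22 CPM at P9 and 52.1 ± 17.1 CPM at P3 (SD, n = 6 each). Bub1b, which encodes BUBR1, averaged 15.4 ± 6.82 CPM at P9 and 77.2 ± 14.4 CPM at P3. Mad2l1, which encodes the MAD2 protein that captures CDC20, averaged 19.7 ± 2.14 CPM at P9 and 41.6 ± 9.37 CPM at P3, 2.11-fold lower.

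Genes of anaphase control diverged as well. Espl1, which encodes separase, had 4.77, 6.29 and 9.41 CPM at P9 (lowest, median and highest library) and 41.6, 81.01 and 116 CPM at P3. Its fall was 11.9-fold (log2 fold change -3.57 ± 0.28, SE, adjusted p = 1.48e-07, edgeR). Pttg1, which encodes securin, the inhibitor and chaperone of separase, had 4.77, 6.13 and 9.22 CPM at P9 and 9.74, 10.7 and 15.9 CPM at P3, only 1.81-fold lower. Cdc20, the activator of the anaphase-promoting complex and the target of the checkpoint, averaged 10.3 ± 3.61 CPM at P9 and 48.2 ± 10.9 CPM at P3 (SD, n = 6 each). Ube2c, the ubiquitin-conjugating enzyme of that complex, averaged 7.82 ± 2.31 CPM at P9 and 25.6 ± 4.72 CPM at P3.

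The 5 genes of the spindle and of cytokinesis moved within a narrow band, with log2 fold changes from -2.88 to -2.12. Anln, which encodes anillin of the cleavage furrow, had 6.10, 12.9 and 17.01 CPM at P9 (lowest, median and highest library) and 34.5, 114 and 136 CPM at P3. Tpx2, an activator of Aurora A and a spindle assembly factor, had 14.6, 18.2 and 25.9 CPM at P9 and 72.8, 106 and 153 CPM at P3. Prc1, which bundles microtubules of the central spindle, had 14.9, 23.1 and 29.9 CPM at P9 and 67.6, 103 and 148 CPM at P3, the smallest fall of the 5 at 4.33-fold. The ages lay well apart for each of them. Nusap1, a spindle microtubule protein, averaged 9.97 ± 2.94 CPM at P9 and 54.01 ± 13.7 CPM at P3 (SD, n = 6 each), 5.41-fold lower. Ect2, the exchange factor that activates RhoA for furrowing, averaged 9.39 ± 2.61 CPM at P9 and 44.6 ± 11.3 CPM at P3, 4.75-fold lower.

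Among centromere and kinetochore proteins named CENP, the falls ranged from 18.2-fold to 1.99-fold. Cenpf (ENSMUSG00000026605.14, chromosome 1, 189640606 to 189688107), a large protein of the outer kinetochore, had 7.61, 9.92 and 14.3 CPM at P9 (lowest, median and highest library) and 129.7, 189.6 and 279.6 CPM at P3. Its adjusted p of 1.16e-08 (edgeR) was the smallest of the 37 genes, with a log2 fold change of -4.18 ± 0.23 (SE). Cenpn, which reads the centromeric nucleosome, had 7.40, 9.32 and 10.1 CPM at P9 and 12.8, 18.7 and 21.7 CPM at P3. Cenpa, the histone H3 variant that marks centromeres, was 11.1-fold lower (log2 fold change -3.47, adjusted p = 1.76e-07, edgeR). Cenpe, a kinesin-like motor that carries chromosomes to the spindle equator, averaged 16.6 ± 1.94 CPM at P9 and 106 ± 34.2 CPM at P3 (SD, n = 6 each), 6.41-fold lower. The constitutive centromere subunit genes Cenpi, Cenpk and Cenpm were 4.07-fold, 5.60-fold and 3.82-fold lower. Cenpi averaged 4.60 ± 0.60 CPM at P9 and 18.7 ± 7.22 CPM at P3, and Cenpm 1.56 ± 0.30 CPM at P9 and 5.96 ± 1.05 CPM at P3. Cenpk had the fewest counts of the set, with 0.493 to 1.61 CPM at P9 and 2.94 to 8.13 CPM at P3, and its lowest library rested on 19 counts.

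The NDC80 complex, the rod that grips microtubules at the outer kinetochore, has 4 subunits, and all 4 genes were lower. Spc24 had 1.81, 3.00 and 3.66 CPM at P9 (lowest, median and highest library) and 10.5, 18.2 and 24.8 CPM at P3. Spc25 (ENSMUSG00000005233.16, chromosome 2, 69193895 to 69206213) had 17.3, 16.9, 5.38, 4.89, 6.66 and 8.18 CPM in P9 replicates 1 to 6, and 44.3, 41.7, 42.2, 17.2, 25.7 and 35.9 CPM in P3 replicates 1 to 6. P9 replicate 1 therefore stood marginally above P3 replicate 4, and these libraries are the overlap. Its fall was 3.49-fold (log2 fold change -1.80 ± 0.34, SE, adjusted p = 0.000404, edgeR), with the widest relative spread at P9 of all 37 genes (coefficient of variation 57.7%). Ndc80 and Nuf2 encode the microtubule-binding end. Ndc80 averaged 3.32 ± 1.12 CPM at P9 and 20.2 ± 5.59 CPM at P3 (SD, n = 6 each), 6.07-fold lower. Nuf2 averaged 7.71 ± 2.35 CPM at P9 and 31.2 ± 8.58 CPM at P3, 4.04-fold lower.

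Condensin folds mitotic chromosomes. Ncapg, a subunit of condensin I, had 3.41, 6.10 and 9.37 CPM at P9 (lowest, median and highest library) and 42.5, 85.9 and 120.2 CPM at P3, 12.7-fold lower. Smc4, a core ATPase shared by condensin I and II, had 51.9, 58.1 and 63.4 CPM at P9 and 139.5, 197.9 and 290.05 CPM at P3, 3.38-fold lower. The other core ATPase gene, Smc2, averaged 21.6 ± 3.64 CPM at P9 and 83.4 ± 26.4 CPM at P3 (SD, n = 6 each), 3.86-fold lower. Ncaph, the kleisin subunit of condensin I, averaged 10.5 ± 2.10 CPM at P9 and 54.1 ± 15.1 CPM at P3, 5.14-fold lower. The libraries of the ages were apart for each of the 4, and at P9 Smc4 varied little, with a mean of 58.2 ± 4.12 CPM (SD, n = 6).

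**Figure D3:**
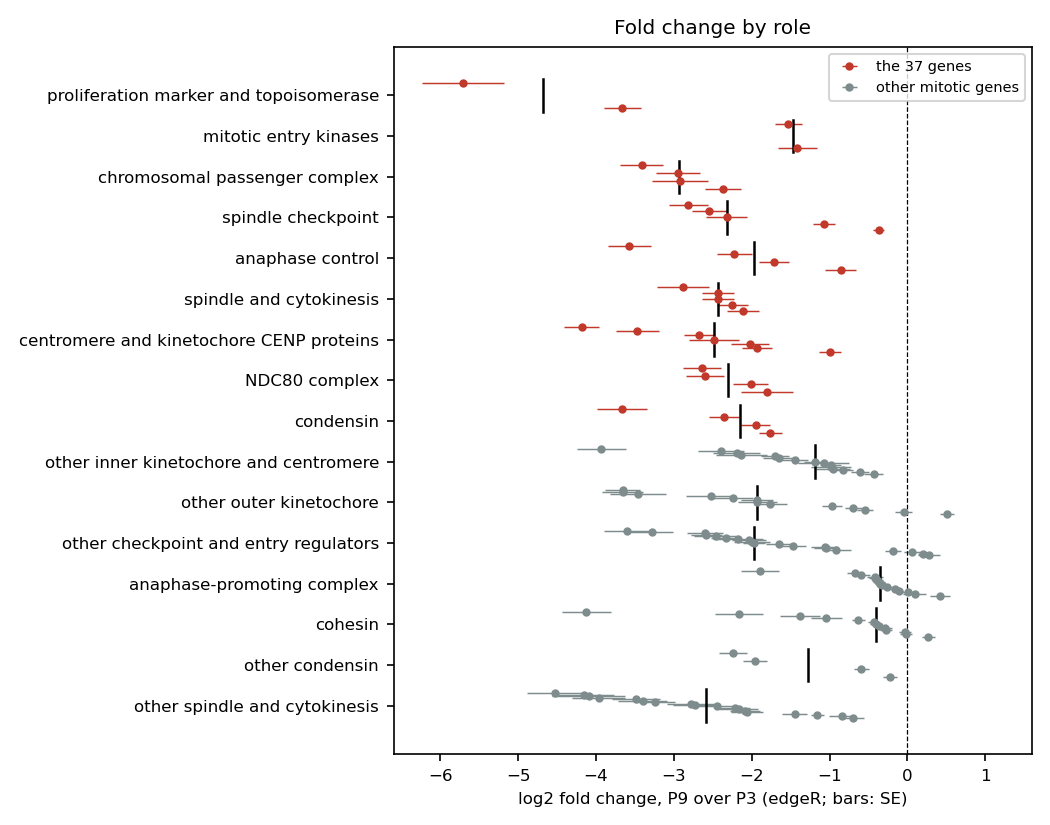
Log2 fold change of each gene, P9 over P3, with its standard error (edgeR), for the 37 genes by role and for 97 other mitotic genes by sub-list. Short vertical lines mark group medians and the dashed line the median of all tested genes. The 37 lie between -5.71 and -0.37, and subunits of the anaphase-promoting complex and cohesin gather near 0.

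In 8 of 10 pairs of partner genes, the ratio between the partners differed between the ages. For each pair the log2 ratio of TMM-scaled CPM (with 0.5 added to both) was taken in each library, and the ages were compared with an exact two-sided permutation test over all assignments of the libraries, adjusted over the 10 pairs. In those 8 pairs the 6 ratios of the ages did not overlap, which gave the smallest p the design allows (0.00216, adjusted p = 0.00271 by the exact permutation test). A shift in a ratio restates the unlike fold changes of its genes and is no separate support for them. The pairs were chosen with earlier results of these data known, and the share among other gene pairs was not computed. A ratio of CPM also carries the lengths of both transcripts, so only the ages are compared within a pair. Aurka over Aurkb was 0.14 ± 0.42 at P9 and -1.79 ± 0.36 at P3 (log2, SD, n = 6 each), a 3.81-fold change toward the spindle pole kinase. Bub3 over Bub1 was 2.62 ± 0.33 at P9 and 0.54 ± 0.42 at P3. The largest difference was in securin over separase, with Pttg1 over Espl1 at 0.02 ± 0.33 at P9 and -2.58 ± 0.45 at P3, a 6.06-fold change.

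Mad2l1 over Cdc20, the inhibitor over its target, was 0.96 ± 0.46 at P9 and -0.21 ± 0.10 at P3 (log2, SD, n = 6 each), a 2.26-fold change. Cenpe over Cenpf was 0.68 ± 0.40 at P9 and -0.85 ± 0.14 at P3. Both condensin pairs shifted toward the core ATPase: Smc2 over Ncapg was 1.78 ± 0.38 at P9 and 0.10 ± 0.21 at P3, and Smc4 over Ncaph was 2.43 ± 0.22 at P9 and 1.86 ± 0.19 at P3. In the opposite direction, Mki67 over Top2a was -0.03 ± 0.35 at P9 and 1.78 ± 0.73 at P3. The NDC80 complex gave the 2 pairs that did not pass. Spc24 over Ndc80 differed by 0.03 between the ages (adjusted p = 0.887, exact permutation test) and Spc25 over Nuf2 by 0.10 (adjusted p = 0.830), and their P9 ratios covered wide ranges of -0.79 to 0.29 and -0.89 to 0.85. The P3 ratios of these pairs lay within those ranges, so a difference of this size was not detectable here.

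**Figure D4:**
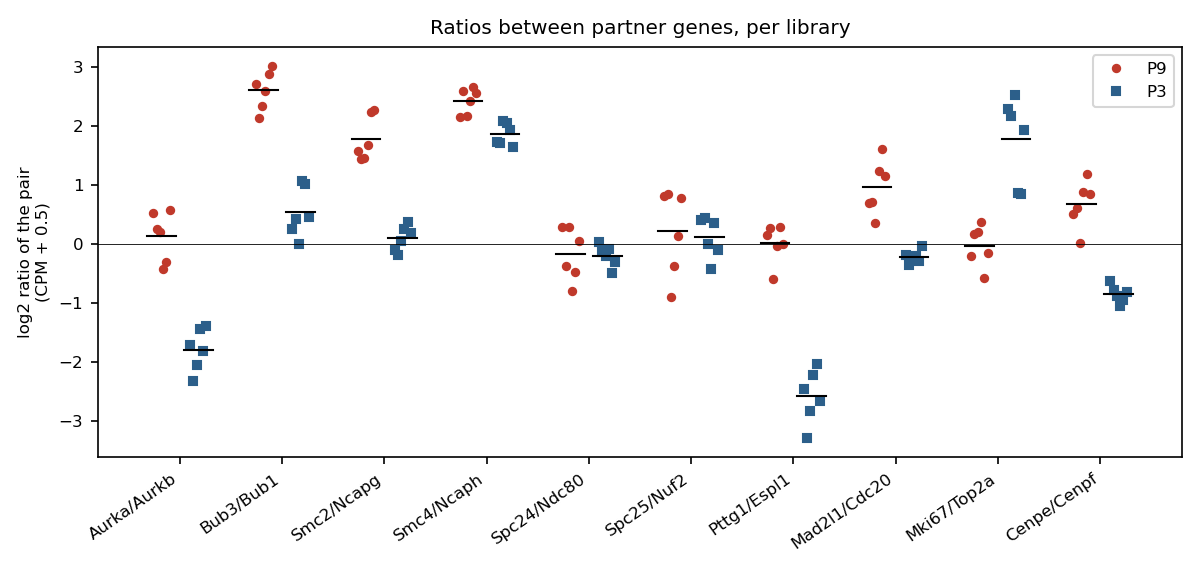
Log2 ratio of CPM between partner genes in every library, P9 as circles left of P3 as squares, with a bar at the mean of 6 libraries. The ages are apart in 8 of 10 pairs and overlap in the pairs of the NDC80 complex.

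Within P3 the libraries differed widely, and the genes moved together. P3 replicates 4 and 5 held the lowest P3 values for 35 of the 37 genes (all but Bub1b and Cenpn), and P3 replicate 3 held the highest for 33 (all but Aurka, Cenpk, Cenpm and Spc25). The summed CPM of the 36 genes other than Mki67 was 513, 581, 582, 451, 455 and 382 in P9 replicates 1 to 6, and 2991, 3053, 4042, 1709, 1752 and 2866 in P3 replicates 1 to 6. The means were 5.54-fold apart without Mki67 and 8.78-fold apart with it. Mki67 itself had 2161, 2293, 4135, 539.8, 541.2 and 1884 CPM in P3 replicates 1 to 6, a 7.66-fold range, whereas Bub3 ranged only 1.16-fold over the same libraries. At P9, replicate 6 held the lowest value for 24 genes and replicate 3 the highest for 18.

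Markers of other cells also moved between these libraries. The summed pericyte markers were 622, 594, 360.5, 1211, 1343 and 677 CPM in P3 replicates 1 to 6, highest in the libraries with the least mitotic RNA and lowest in the library with the most. The rod markers stood at 2382 and 2256 CPM in P3 replicates 4 and 5 and at 1143 to 1671 CPM in the other 4 libraries. The progenitor markers ran from 2423 to 2858 CPM, with replicates 4 and 5 (2499 and 2561) inside the range of the others. Between the ages, 8 lens markers summed to 42.0 to 923.9 CPM at P9 and 3935 to 9935 CPM at P3, all 8 lower at P9. The 7 bipolar cell markers summed to 1013 to 1817 CPM at P9 and 81.7 to 106 CPM at P3. The 5 erythroid markers summed to 160.4 to 1585 CPM at P9 and 18.8 to 87.8 CPM at P3. All bipolar and erythroid markers were higher at P9. Among all tested genes 25.6% were called lower and 26.1% higher. P3 replicates 4 and 5 stood at 6169 and 5511 CPM of lens markers, inside the range of the others. The part of these cells in the levels and the spread of the mitotic genes was not tested. Without P3 replicates 4 and 5 all 37 genes were still lower at P9, with a median log2 fold change of -2.61 and Mki67 at -6.15.

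**Figure D5:**
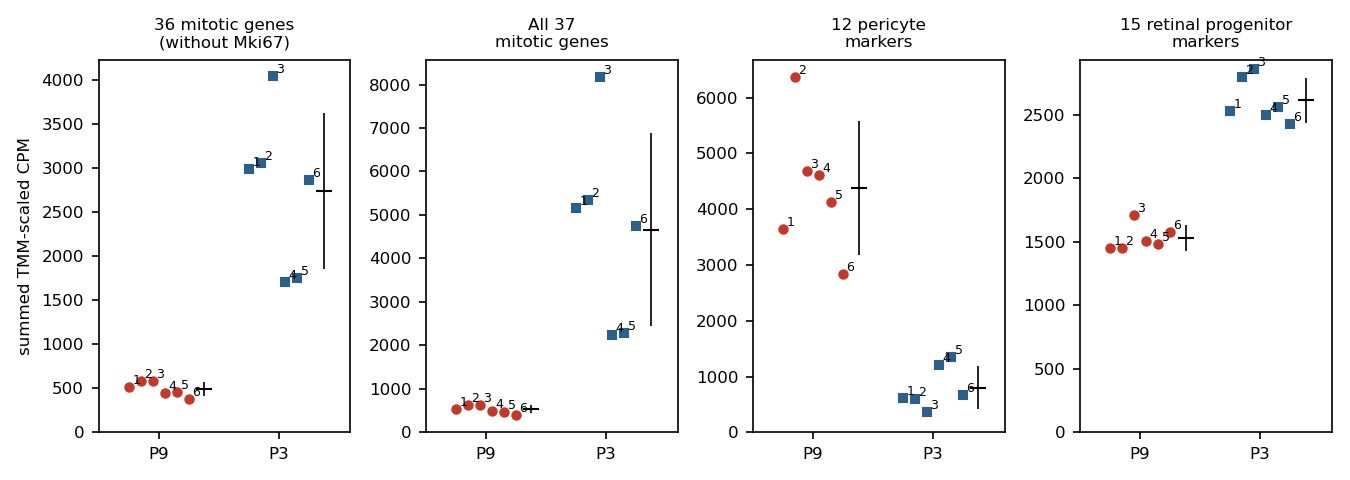
Summed TMM-scaled CPM per library of the mitotic genes without and with Mki67, of 12 pericyte markers and of 15 retinal progenitor markers, P9 left of P3, with replicate numbers beside the points and the mean ± SD of 6 libraries as a cross. P3 replicates 4 and 5 are low for the mitotic genes and high for the pericyte markers.

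A second list of 97 mitotic genes that shares none with the 37 gave 83 lower, 4 higher and 10 that did not pass. Its median log2 fold change was -1.18. The shares of all tested genes, to be set beside this list and its sub-lists, were 25.6% lower and 26.1% higher. All 18 other spindle and cytokinesis genes of the second list were lower. Aspm, a spindle pole protein, averaged 6.80 ± 2.39 CPM at P9 and 158 ± 71.5 CPM at P3 (SD, n = 6 each), 23.1-fold lower, while Gpsm2, which orients the spindle, was 1.63-fold lower. Of 15 other centromere and inner kinetochore genes 15 were lower, with the smallest change in Cenpx (1.35-fold). Among 13 other outer kinetochore genes 11 were lower, with Kntc1 12.6-fold lower, and Mis12 did not pass (26.3 ± 3.15 CPM at P9 and 27.3 ± 4.30 CPM at P3). Among 19 other checkpoint and entry regulators 15 were lower, led by Sgo1, the protector of centromeric cohesin (12.2-fold). Mad1l1, the partner of MAD2, did not pass (23.1 ± 3.57 CPM at P9 and 22.1 ± 1.89 CPM at P3).

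The anaphase-promoting complex and cohesin, which also act outside mitosis, had medians nearer to 0. In the anaphase-promoting complex list 11 of 15 were lower, 1 was higher and 3 did not pass, with a median log2 fold change of -0.35. Its largest fall was in Fbxo5, which encodes the inhibitor EMI1, at 3.71-fold, and Anapc11, its RING subunit, had 25.2 ± 1.95 CPM at P9 and 25.1 ± 1.76 CPM at P3 (SD, n = 6 each). In the cohesin list 10 of 13 were lower, 1 was higher and 2 did not pass, with a median of -0.40. The acetyltransferase gene Esco2, which acts in S phase, was 17.4-fold lower, whereas its relative Esco1 was higher at 40.5 ± 4.05 CPM at P9 and 33.6 ± 3.16 CPM at P3 (adjusted p = 0.0177, edgeR), and the core subunit Stag2 did not pass (adjusted p = 0.856, edgeR). Of the 4 other condensin genes 3 were lower, with Ncapg2 of condensin II 4.72-fold lower and Ncapd3 not called (adjusted p = 0.0501, edgeR).

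The other genes that were higher at P9 were Zwint, Ensa and Anapc10. Zwint, a kinetochore protein whose rat form is also known to bind the synaptic protein SNAP25, averaged 175 ± 12.1 CPM at P9 and 123 ± 17.2 CPM at P3 (SD, n = 6 each), with no overlap between the ages (adjusted p = 0.000323, edgeR), as for 16.3% of tested genes in that direction. The phosphatase inhibitor gene Ensa was 1.15-fold higher and Anapc10 1.34-fold higher, with overlapping values.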

How the data were processed

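Ribosome-bound RNA of 12 retinal libraries was sequenced. The authors deposited unscaled expected counts per gene from RSEM, per the file headers. The submitters' processing notes also list STAR, Trim Galore, FastQC and limma with build mm10, with no version or role stated in the sources used here. Groups came from the age label. Replicates follow deposition order, and the names of P9 replicates 5 and 6 are crossed between labels and files, which touches no comparison of the ages.

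Rounded expected counts were filtered with filterByExpr (18638 genes kept), scaled by TMM and tested with edgeR 4.0.16 in R 4.3.3, after a check on simulated counts. The standard error is the size of the log2 fold change divided by the square root of F. A level of 1 CPM rests on 25.8 to 38.5 counts per library, and these totals limit the precision of low genes. Values further than 1e-06 from a whole number occurred in 16 of the 37 genes, where the fraction was at most 0.912% of a value. No transcript lengths were used, so levels per length were not compared between genes. The share of Mki67 in the summed CPM and the choice of the highest mean CPM in each role therefore also carry transcript length.

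Members, lists, pairs and rules were chosen with earlier results of these data known. Per-library values are given for the genes with the largest and smallest change and the highest mean CPM of each role, and for others where the text turns on them. From the second list, whose symbol Cenps was not matched, the largest fall, the smallest change and every gene called higher are named, except 1 gene that is not reported here. Alternatives were size factors by median ratio or upper quartile, unscaled totals, no filter or a minimum mean of 10 CPM, limma-voom (limma 3.58.1), DESeq2 1.42.0, a robust fit, a threshold of 0.01, pseudocounts of 0.1 and 2 CPM, TTTGAA alone as CHR, and omitted libraries.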

Additional observations from a re-analysis of the deposited data

Results flagged for a closer look

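Of 96 sets of 6 values examined (each gene, pair ratio and the sum of the 37 genes, in each age), 2 held a library set apart from the others by Dixon's test at the 95% level, while chance alone gives about 1 in 20. Mad2l1 stood at 15.55 CPM in P9 replicate 6, below the other P9 libraries. The log2 ratio of Pttg1 over Espl1 was -0.59 in P9 replicate 3, the lowest of the P9 libraries and still above all P3 libraries.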

How the results depend on the processing

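The 37 genes kept their direction and their side of the threshold under every alternative in which they were tested. With a mean of at least 10 CPM required, 34 were tested and all 34 were called lower. The count stayed at 37 when any library was left out, and the median log2 fold change ranged from -2.61 to -2.29 over all alternatives. The second list gave 82 to 84 genes lower with a library left out and 66 to 84 over all alternatives, the lowest of which tested fewer genes. The genes without overlap between the ages numbered 36 or 37. All 8 called pairs stayed called, with a largest adjusted p of 0.0119 (exact permutation test). The uncalled NDC80 pairs changed sign: with a library left out, Spc24 over Ndc80 ranged from -0.064 to 0.15 and Spc25 over Nuf2 from -0.026 to 0.32, and without P3 replicates 4 and 5 the log2 ratio difference Spc24/Ndc80 was -0.0161, changes for which the cause was not tested. With TTTGAA alone 21 of 32 windows held a CHR. Levels per length, with their alternative, were not run. No paired analysis was possible because replicate numbers here follow deposition order and pair no libraries. Depth limits Cenpk most, with 19 to 56 counts per library at P9.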
